A study of Sus scrofa with 61 samples.

Results

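Mitochondrial fatty acid oxidation was described here through 10 genes: CPT1B, CPT2, ACADVL, ACADL, ACADM, HADHA, HADHB, DCI, ACAA2 and ETFDH. A probe was counted to a gene when the array names it by that symbol, which gave 33 probes of the 60305 on the array that are not controls. All 33 were among the 42436 probes kept after the filter on dim signal. RNA of the longissimus muscle of 61 male pig fetuses, taken by caesarean section at day 90 or day 110 of gestation, was hybridized to 1-colour arrays, 1 fetus per array. LW is Large White and MS is Meishan, a breed whose piglets are known for high survival at birth; LWMS crossbreds came from MS sows by LW boars and MSLW crossbreds from LW sows by MS boars. At day 90 there were 8 fetuses in each of the 4 genotypes, and at day 110 there were 9 LW, 7 MS, 8 LWMS and 5 MSLW fetuses. A litter could hold both kinds of fetus, since each sow received semen of LW and MS boars together. The sow of each fetus was not known here, and a p-value therefore measures the spread between fetuses, of which some were littermates.

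Muscle fibres burn long fatty acids inside the mitochondria. CPT1B, the muscle form of carnitine palmitoyltransferase 1, loads the fatty acid onto carnitine at the outer membrane and is held back by malonyl-CoA, and CPT2 unloads it inside. Each round of beta-oxidation then starts with a dehydrogenase chosen by chain length (ACADVL for very long, ACADL for long and ACADM for medium chains), goes on through the trifunctional protein made of HADHA and HADHB, which hydrates, oxidizes and cleaves long chains, and ends with a thiolase such as ACAA2 for shorter chains. DCI, today named ECI1, moves the double bond of unsaturated fatty acids so that they can enter the cycle, and ETFDH passes the electrons from the dehydrogenases to the respiratory chain. In pigs, which lack functional brown fat at birth, shivering muscle is a main source of heat for the newborn.

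Several results below turn on single probes, and the probes that carry them are shown with their 60 bases, 5′ to 3′, as the array's files give them. DCI had only 1 probe, and ACADVL likewise:
DCI O14547: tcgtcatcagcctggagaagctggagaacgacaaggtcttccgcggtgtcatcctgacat
ACADVL O10385: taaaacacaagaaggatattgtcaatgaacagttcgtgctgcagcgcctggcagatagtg
CPT1B had 5 probes, of which A_72_P562224 and A_72_P273299 hold 1 and the same sequence and are 2 readings of 1 site:
CPT1B A_72_P562224: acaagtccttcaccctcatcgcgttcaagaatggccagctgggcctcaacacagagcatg
ACADM had 8 probes, of which A_72_P601403 and A_72_P607423 share 38 bases. The probe A_72_P653622 went against the others between the breeds. It shared no stretch of 15 bases or more with them, whereas A_72_P578028 shared the 16 bases in capitals with A_72_P627490:
ACADM A_72_P653622: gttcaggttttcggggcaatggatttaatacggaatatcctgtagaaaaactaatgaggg
ACADM A_72_P578028: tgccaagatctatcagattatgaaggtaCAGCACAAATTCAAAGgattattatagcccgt
HADHA had 5 probes, and the pair that differed more between the breeds than the other 3 overlaps, with 56 matching bases of 57 aligned; capitals mark the 39 bases that they share without a break:
HADHA A_72_P092111: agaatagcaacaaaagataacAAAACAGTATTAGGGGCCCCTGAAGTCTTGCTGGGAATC
HADHA A_72_P736892: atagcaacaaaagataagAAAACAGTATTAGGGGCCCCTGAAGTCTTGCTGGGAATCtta
ACADL had 7 probes, and O13893 lies on the opposite strand: its reverse complement matched A_72_P672943 at 32 of the 36 aligned bases, which are in capitals in both:
ACADL A_72_P672943: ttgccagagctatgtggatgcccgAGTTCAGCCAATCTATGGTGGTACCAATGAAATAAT
ACADL O13893: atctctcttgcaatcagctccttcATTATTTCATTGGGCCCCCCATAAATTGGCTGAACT
CPT2 and HADHB had 2 probes each, and ACAA2 and ETFDH 1. Where a gene had more than 1 probe, results are given first for its main probe, chosen as the brightest on average over the 61 arrays, and then as a range for the others. The CPT1B probe O14505 is described by the array as choline kinase beta and CPT1B, whose genes are neighbours in the RefSeq annotation, so that its signal could come from either.

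The 61 arrays had between 34346 and 45683 probes well above background by the scanner software's mark. Of the 33 probes, 32 were well above background on all arrays, and the HADHB probe O5529 on only 24. The lowest number was on the array of MS day 90 replicate 3. The array of MSLW day 90 replicate 2 had 752 spots marked as non-uniform, among them the main probes of ACADVL and HADHB, which were therefore missing for that fetus. LW day 90 replicate 8 had 802 such spots and MSLW day 90 replicate 8 had 537, against a median of 16 over the arrays. The arrays were spread over 8 slides, each with 6 to 8 of the 8 groups. The 5 muscle fibre genes measured, ACTA1, CKM, DES, MYLPF and TNNT3, had a mean level between 18.26 and 18.55 on the log2 scale in every fetus and were well above background on all arrays.

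All 10 enzyme genes rose between day 90 and day 110 in each of the 4 genotypes. The largest adjusted p of a main probe was 1.83e-05 in LW and 1.51e-07 in MS, and the crosses had 6.56e-07 (LWMS) and 5.49e-06 (MSLW). Higher calls made up 21.8% of all probes tested in LW, 28.6% for MS, 25.1% for LWMS and 20.8% for MSLW. The other 23 probes also rose in every genotype. Among them, the HADHB probe O5529 was well above background on only 24 of the 61 arrays. The filter keeps a probe through any 1 group where it is bright, so the rise of O5529 could in part follow from the filter. The median age change of the 10 main probes was 1.42 for LW on the log2 scale, 1.57 for MS, 1.32 for LWMS and 1.33 for MSLW, whereas the median over all probes was between 0.022 and 0.043. Every day 110 fetus lay above every day 90 fetus of its genotype for all 10 genes in LW, LWMS and MSLW and for 9 of the 10 in MS; ACADL was the exception. The share of all probes with such a gap upwards was 10.4% for LW, 18.6% for MS, 14.1% for LWMS and 12.4% for MSLW. Averaged over the genotypes, DCI rose the most, by 2.71 (95% confidence interval 2.55 to 2.88, a 6.56-fold rise), followed by ACADVL with 2.36 (2.23 to 2.48), CPT1B with 1.99 (1.87 to 2.12), CPT2 with 1.76 (1.61 to 1.91), ACAA2 with 1.56 (1.44 to 1.68), ACADM with 1.24 (1.15 to 1.33), HADHA with 1.20 (1.07 to 1.33), HADHB with 1.07 (0.99 to 1.16), ETFDH with 0.91 (0.75 to 1.07) and ACADL with 0.83 (0.72 to 0.95). From CPT1B downwards, the intervals of neighbours in this order overlapped for CPT1B and CPT2, for CPT2 and ACAA2, and for all neighbours from ACADM on. This order is that of the main probes. The other probes rose by 1.42 to 1.66 for ACADM, 1.32 to 1.71 for HADHA, 2.03 to 2.26 for CPT1B and 0.57 to 1.07 for ACADL. The other CPT2 probe rose by 1.89, and the dim HADHB probe O5529 by 1.28. Within slides, each of the 10 genes was higher at day 110 on all 7 slides that held both ages of LW, all 7 of MS, all 8 of LWMS and all 5 of MSLW. In whole muscle, a change in the share of fibres among the cells and a change in the RNA per fibre cannot be told apart.

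**Figure D1:**
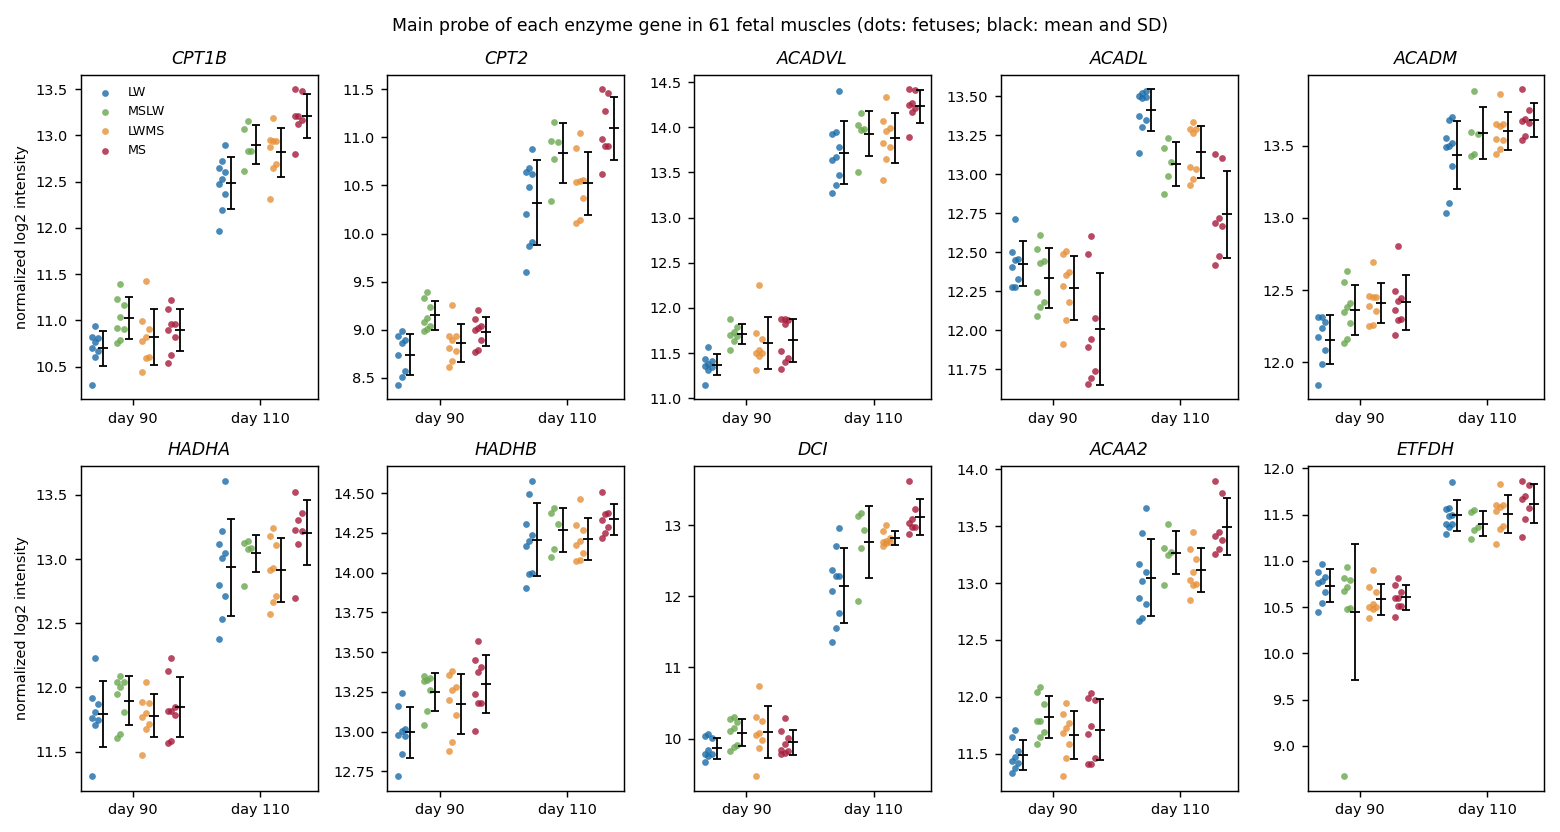
Normalized log2 intensity of the main probe of each enzyme gene (vertical axis, own range per panel) in LW, MSLW, LWMS and MS fetuses at day 90 and day 110; dots are fetuses and black bars the mean and SD. Day 110 fetuses lie above day 90 fetuses of their genotype throughout, apart from ACADL in MS, and 1 MSLW fetus of day 90 lies at 8.67 for ETFDH.

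The 2 carnitine transferases came next after DCI and ACADVL. CPT1B read from 10.31 to 10.94 (median 10.73) in LW fetuses at day 90 and from 11.97 to 12.89 (median 12.53) at day 110. In MS fetuses it read from 10.55 to 11.22 (median 10.93) at day 90 and from 12.80 to 13.50 (median 13.21) at day 110. The 2 ages were thus far apart, whereas the breeds overlapped at day 90 and met only at their edges at day 110. The rise was 1.79 ± 0.12 (SE), or 3.45-fold, in LW and 2.32 ± 0.13, or 4.99-fold, in MS. The other 4 CPT1B probes rose by 1.73 to 1.92 in LW and by 2.40 to 2.73 in MS. The crossbred fetuses overlapped both breeds: CPT1B read from 12.31 to 13.19 (median 12.91) in LWMS at day 110, and 13.15, 12.83, 12.62, 13.07 and 12.83 in MSLW. For CPT2, LW fetuses read from 8.43 to 8.99 (median 8.80) at day 90 and from 9.60 to 10.88 (median 10.48) at day 110, and MS fetuses from 8.77 to 9.21 (median 9.01) and from 10.62 to 11.50 (median 10.98). CPT2 rose by 1.58 ± 0.14 in LW and by 2.11 ± 0.15 in MS, and its breeds overlapped at both ages. At day 110 the LWMS fetuses read from 10.105 to 11.04 (median 10.54) for CPT2 and the MSLW fetuses 11.15, 10.96, 10.33, 10.96 and 10.78.

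Of the chain-length dehydrogenases, the enzyme for very long chains rose the most. ACADVL read from 11.15 to 11.57 (median 11.37) in LW at day 90 and from 13.28 to 14.40 (median 13.67) at day 110, a 5.09-fold rise. In MS it read from 11.32 to 11.88 (median 11.67) and from 13.89 to 14.42 (median 14.25), a 6.02-fold rise. The highest ACADVL reading of LW at day 110 came close to the top of the MS range. In the crosses ACADVL rose by 2.26 in LWMS and 2.22 in MSLW. ACADM read from 11.84 to 12.32 (median 12.21) in LW at day 90 and from 13.03 to 13.70 (median 13.50) at day 110, and in MS from 12.19 to 12.81 (median 12.39) and from 13.54 to 13.89 (median 13.67). ACADM rose by 1.28 ± 0.09 in LW and 1.26 ± 0.09 in MS at its main probe, and by 1.46 to 1.68 in LW and 1.52 to 1.75 in MS at the other 7. ACADL read from 12.28 to 12.71 (median 12.43) in LW at day 90 and from 13.14 to 13.53 (median 13.49) at day 110. In MS it read from 11.65 to 12.60 (median 11.91) at day 90 and from 12.41 to 13.13 (median 12.69) at day 110. ACADL thus rose less, by 0.99 ± 0.11 in LW and 0.73 ± 0.11 in MS, and the MS fetuses of both ages lay low.

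Of the later steps, DCI rose 4.87-fold in LW and 8.98-fold in MS. The LW fetuses read from 9.67 to 10.06 (median 9.81) at day 90 and from 11.35 to 12.96 (median 12.29) at day 110, and the MS fetuses from 9.78 to 10.29 (median 9.88) and from 12.88 to 13.63 (median 13.03). At day 90 the breeds covered nearly the same range, and at day 110 only 1 LW fetus, at 12.96, reached into the range of the MS fetuses. The LWMS fetuses of day 110 were tight, from 12.715 to 13.004 (median 12.774). The 5 MSLW fetuses of day 110 read 13.17, 12.93, 11.93, 13.13 and 12.68 for DCI, so that 3 of them lay within the LW range, and 2 of these below every MS fetus.

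The subunits of the trifunctional protein both rose. HADHA read from 11.31 to 12.23 (median 11.79) in LW at day 90 and from 12.38 to 13.61 (median 13.01) at day 110, and in MS from 11.57 to 12.23 (median 11.82) and from 12.70 to 13.52 (median 13.23). It rose by 1.14 ± 0.12 in LW and by 1.36 ± 0.13 in MS, and the breeds overlapped at both ages. HADHB read from 12.72 to 13.24 (median 12.99) in LW at day 90 and from 13.91 to 14.58 (median 14.20) at day 110, and in MS from 13.002 to 13.57 (median 13.31) and from 14.22 to 14.51 (median 14.33). Its rise was 1.21 ± 0.08 in LW and 1.03 ± 0.09 in MS. The array also carries 4 probes under LCTHIO, which the RefSeq annotation lists as an older symbol of HADHB. They were not counted among the 33, and they rose by 1.30 to 1.52 in LW and by 1.30 to 1.57 in MS. ACAA2 read from 11.33 to 11.71 (median 11.45) in LW at day 90 and from 12.67 to 13.66 (median 13.02) at day 110, and in MS from 11.41 to 12.04 (median 11.71) and from 13.25 to 13.90 (median 13.41). It rose by 1.56 ± 0.11 in LW and 1.79 ± 0.12 in MS. ETFDH, at the exit to the respiratory chain, read from 10.45 to 10.97 (median 10.77) in LW at day 90 and from 11.29 to 11.85 (median 11.49) at day 110, and in MS from 10.40 to 10.81 (median 10.60) and from 11.26 to 11.87 (median 11.66). It rose by 0.76 ± 0.15 in LW and by 1.01 ± 0.16 in MS. In MSLW, ETFDH rose by 0.96 ± 0.18 with replicate 2 of day 90 and by 0.70 without it. That fetus read 8.67 against 10.48 in the next, on an array with 752 non-uniform spots.

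**Figure D2:**
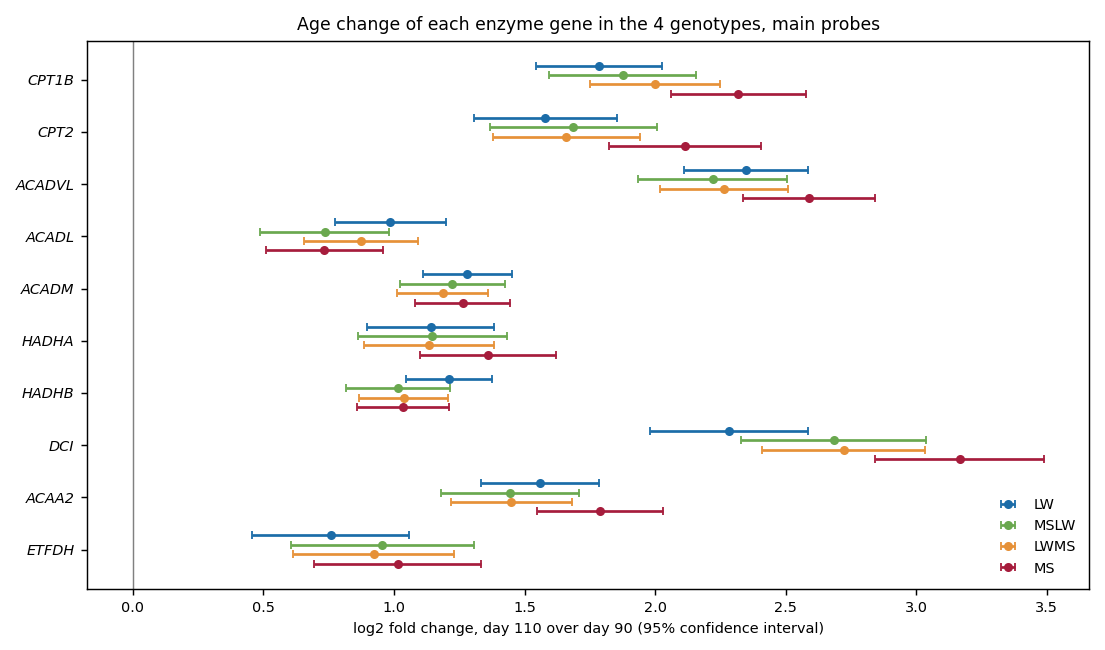
Log2 fold change from day 90 to day 110 (horizontal axis) of the main probe of each enzyme gene in LW, MSLW, LWMS and MS fetuses, with 95% confidence intervals. All 40 estimates lie above 0, from 0.73 for ACADL in MS to 3.17 for DCI in MS.

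The comparison of the purebred fetuses asks whether the breeds, which differ in survival at birth, also differ in these enzymes at a given age. At day 90, 2 of the 10 main probes passed the test between MS and LW, against 12.8% of all probes. ACADL was lower in MS by 0.42 ± 0.11 (adjusted p = 0.00328), and HADHB was higher by 0.31 ± 0.08 (adjusted p = 0.00584). For the other 8 genes the differences lay between -0.13 for ETFDH and 0.27 for ACADVL. The ACADL difference was -0.37 with an adjusted p of 0.012 without MS day 90 replicate 3, and both calls were lost when only LW and MS fetuses were fitted (adjusted p = 0.0126 for ACADL and 0.0156 for HADHB) and with 75th percentile scaling (0.0111 and 0.0297). Over the 19 alternatives the adjusted p ran from 0.00237 to 0.0144 for ACADL and from 0.00273 to 0.560 for HADHB. At the 4 LCTHIO probes the difference was 0.12 to 0.19, and none of them passed.

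At day 110, 6 of the 10 main probes passed, against 29% of all probes. DCI was higher in MS by 0.96 ± 0.16 (95% confidence interval 0.65 to 1.28, 1.95-fold, adjusted p = 1.46e-06), CPT2 by 0.77 ± 0.14 (1.71-fold, adjusted p = 1.25e-05), CPT1B by 0.73 ± 0.12 (1.65-fold, adjusted p = 4.02e-06), ACADVL by 0.51 ± 0.12 (adjusted p = 0.000605) and ACAA2 by 0.45 ± 0.12 (adjusted p = 0.00149). ACADL went the other way. It was lower in MS by 0.67 ± 0.11 (1.59-fold, adjusted p = 1.62e-06), and all 7 MS fetuses, from 12.41 to 13.13, lay below all 9 LW fetuses, from 13.14 to 13.53. Such a gap downwards was seen for 4.5% of all probes, and no other main probe of the 10 had a gap in either direction at day 110. Of the other 6 ACADL probes, 5 also passed as lower, by 0.49 to 0.70. These are not all separate sites, since A_72_P587126 shares 33 bases with A_72_P642341 and 26 with A_72_P654401. The probe O13893, on the opposite strand, differed by -0.12 and did not pass. Within the 6 slides that held both breeds at day 110, ACADL was lower in MS in 6 of 6, with differences between -1.09 and -0.18, CPT1B, CPT2, ACADM and DCI were higher in 6 of 6, ACADVL, HADHA, ACAA2 and ETFDH in 5 of 6 and HADHB in 4 of 6. ACADM (0.24, adjusted p = 0.0246), HADHA (0.27, adjusted p = 0.0805), HADHB (0.13, 95% confidence interval -0.043 to 0.30) and ETFDH (0.13, -0.18 to 0.44) did not pass. With each array scaled to its 75th percentile in place of quantile normalization, 9 of the 10 passed. ACADM, HADHA and HADHB were then called, at 0.44, 0.43 and 0.39, and ACADVL was higher in MS by 0.78. That scaling moved all probes towards MS, with a median of 0.062 in place of 0.0079. Of 42436 probes 12642 passed in place of 12289, and 56.9% of these were higher in MS in place of 47.5%. HADHA also passed as the mean of its 5 probes (0.62, adjusted p = 0.00126), and over its 19 alternatives the adjusted p ran from 0.00126 to 0.133. By themselves only the 2 overlapping HADHA probes passed, the larger at 1.11, and the mean counts both.

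Probes of 1 gene disagreed between the breeds in ACADM and HADHA. These probes were picked out after their values were seen, and their difference from the other probes is given as a description. The ACADM probe A_72_P653622 was lower in MS by 0.53 ± 0.14 at day 90 (adjusted p = 0.00303) and by 0.48 ± 0.14 at day 110 (adjusted p = 0.0042), whereas the difference at the other 7 ACADM probes was 0.22 to 0.29 at day 90, where none passed, and 0.24 to 0.41 at day 110, where 5 passed as higher. On this probe the LW fetuses of day 90 read from 9.53 to 10.32 (median 9.87) and the MS fetuses from 9.15 to 9.82 (median 9.30). It rose with age by 1.68 in LW and by 1.73 in MS. The overlapping HADHA probes A_72_P092111 and A_72_P736892 were higher in MS at day 110 by 1.11 ± 0.24 and 1.07 ± 0.24, whereas the difference at the other 3 was 0.27 to 0.34 and did not pass. On A_72_P092111 the MS fetuses of day 110 read from 10.16 to 10.88 (median 10.58) and the LW fetuses were spread from 8.31 to 10.68 (median 9.28).

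**Figure D3:**
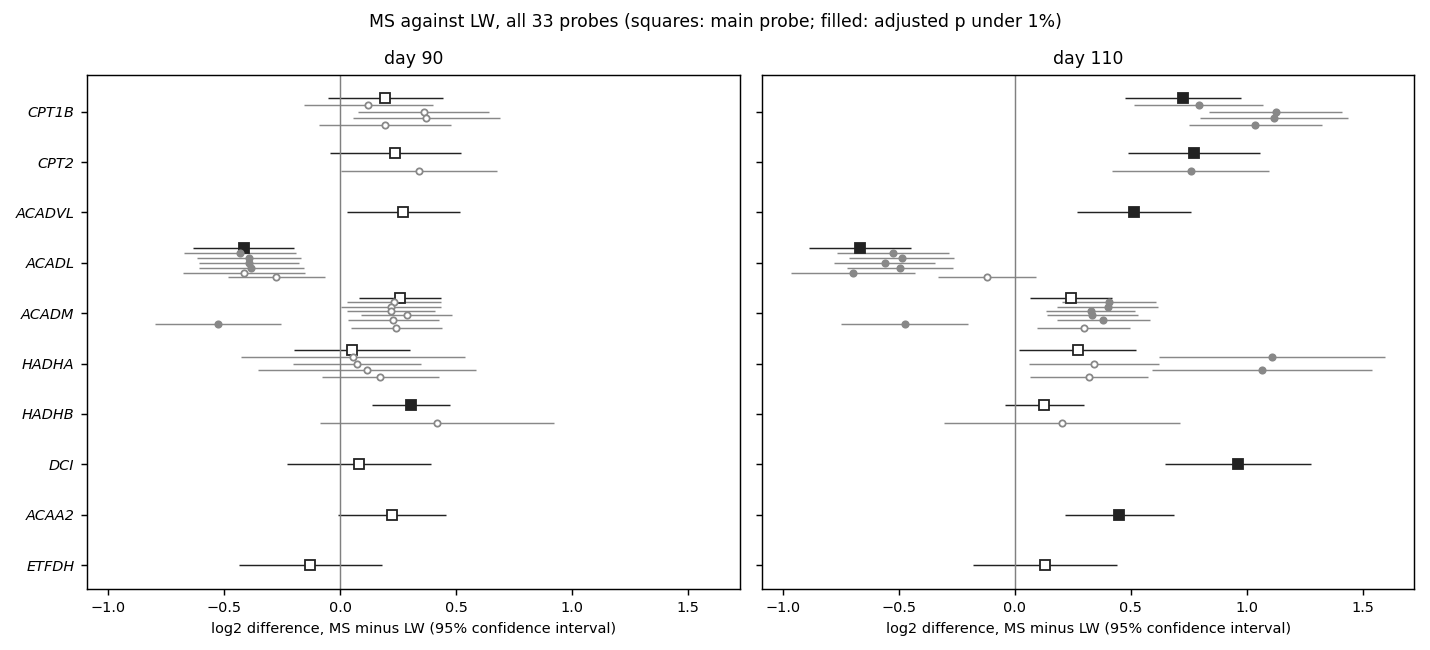
Log2 difference between MS and LW fetuses (horizontal axis) at day 90 and day 110 for all 33 probes, with 95% confidence intervals; squares are main probes, circles the other probes, and filled symbols passed the test. All ACADL probes lie below 0, the ACADM probe A_72_P653622 lies apart from the other ACADM probes, and 2 HADHA probes lie above 1 at day 110.

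The test of whether the age change itself differed between the breeds passed for 1 main probe of the 10, against 5.95% of all probes. That gene was DCI. From these same arrays, the study had already placed DCI among its genes with an interaction of age and genotype. The DCI call is therefore no independent support. Of the 10 genes, only DCI and CPT1B had a probe in the study's gene lists, 1 each. DCI rose more in MS by 0.88 ± 0.22 (95% confidence interval 0.44 to 1.32, adjusted p = 0.00473), and over the 19 alternatives the difference lay between 0.86 and 1.05, with adjusted p from 0.00181 to 0.00916. For CPT1B the difference was 0.53 ± 0.18 (0.18 to 0.89) with an adjusted p of 0.0333 at the main probe, and 2 of its other 4 probes passed: A_72_P273299 at 0.77 (adjusted p = 0.00689) and O14505 at 0.84 (adjusted p = 0.00314). The first of these has the same sequence as A_72_P562224, which differed by 0.75 and did not pass (adjusted p = 0.0192). CPT1B was called with 75th percentile scaling (0.72, adjusted p = 0.00463) and as the mean of its 5 probes (0.71, adjusted p = 0.00704), and over its alternatives the adjusted p ran from 0.00463 to 0.0664. That mean counts the shared sequence 2 times and takes in O14505, whose signal could come from choline kinase beta. For CPT2 the difference was 0.54 ± 0.20 (adjusted p = 0.0613). The intervals of the other 7 genes all included 0, and their estimates ran from -0.25 for ACADL to 0.26 for ETFDH. Of all probes that passed, 43.0% had a difference above 0, which a larger rise or a smaller fall in MS can give. With 75th percentile scaling 63.7% did. These differences and those at each age share the same fetuses.

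The reciprocal crosses carry the same 2 breeds in opposite parental roles. None of the 10 main probes passed between LWMS and MSLW at day 90 or day 110 with limma, where 0.5% and 0.912% of all probes did; at an unadjusted p under 0.05 there was 1 gene at day 90 and 0 at day 110. The largest difference was that of CPT2, at -0.29 ± 0.14 for LWMS against MSLW at day 90 (adjusted p = 0.511) and -0.31 ± 0.16 at day 110 (adjusted p = 0.351). Over the 10 genes and both ages the confidence limits of this difference ran from -0.63 to 0.46. None of the 10 passed for the mean of the crosses against the mean of the breeds, where 0.0495% of all probes did at day 90 and 0.0778% at day 110, with 0 of the 10 at an unadjusted p under 0.05 at either age. The estimates lay between -0.15 and 0.18 at day 90 and between -0.10 and 0.16 at day 110, with confidence limits from -0.37 to 0.40 and from -0.34 to 0.40. For ACADL at day 110, the gene with the gap between the breeds, the LW mean was 13.41, the LWMS mean 13.14, the MSLW mean 13.07 and the MS mean 12.74.

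When the age change was divided by the parents' breeds, none of the 10 main probes passed with limma for the mother (3.05% of all probes; 2 of the 10 at an unadjusted p under 0.05) or for the father (0.462%; 1 of the 10). DCI had the largest estimates: the difference in its rise was 0.46 ± 0.16 for a MS against a LW mother (adjusted p = 0.0596) and 0.42 ± 0.16 for a MS against a LW father (adjusted p = 0.189). For CPT1B it was 0.32 ± 0.13 by the mother (adjusted p = 0.113), and for CPT2 0.29 ± 0.15 by the father (adjusted p = 0.364).

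The rest of the pathway was read through lists of other genes, each by its main probe and by the age change averaged over the genotypes, for which 37.3% of all probes passed as higher and 35% as lower. All 14 genes listed under other mitochondrial beta-oxidation rose, with a median of 1.21 beside 0.038 over all probes. The list was drawn broadly and takes in the dehydrogenases ACADSB, ACAD8 and ACAD9. ECH1, an isomerase for unusual double bonds, rose by 2.12 and ACAT1, the mitochondrial acetoacetyl-CoA thiolase, by 1.73, while ECHS1, the short-chain hydratase, rose by 0.60 and ACAD11 by 0.38. Of 8 measured genes of fatty acid activation and the carnitine shuttle, 4 rose and 2 fell. ACSL1, which activates long chains, rose by 1.35 and CRAT, which handles acetylcarnitine, by 1.20; ACSL3 (-0.10, adjusted p = 0.0441) and CPT1C (0.020) did not pass. The 3 genes that set malonyl-CoA moved apart: ACACB, the mitochondrial acetyl-CoA carboxylase that makes it beside CPT1, rose by 2.19, MLYCD, which breaks it down, rose by 1.65, and ACACA, the carboxylase of fat synthesis, fell by 0.45. In the peroxisomal list 7 of 9 rose and 1 fell, with ACOX2 at 1.58 and EHHADH at 1.09 at one end and CROT at -0.29 and ACOX3 at -0.052 (not passed) at the other. In the citric acid cycle 14 of 15 rose, with a median of 1.32. IDH2 rose by 1.79, IDH3A by 1.66 and SUCLG2 by 0.57, and FH (-0.24, adjusted p = 0.0198) did not pass. In glycolysis 10 of 12 rose, with a median of 0.46; ALDOA rose by 1.09 and HK2 by 0.29, and HK1 fell by 1.16 and GAPDH by 0.097.

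**Figure D4:**
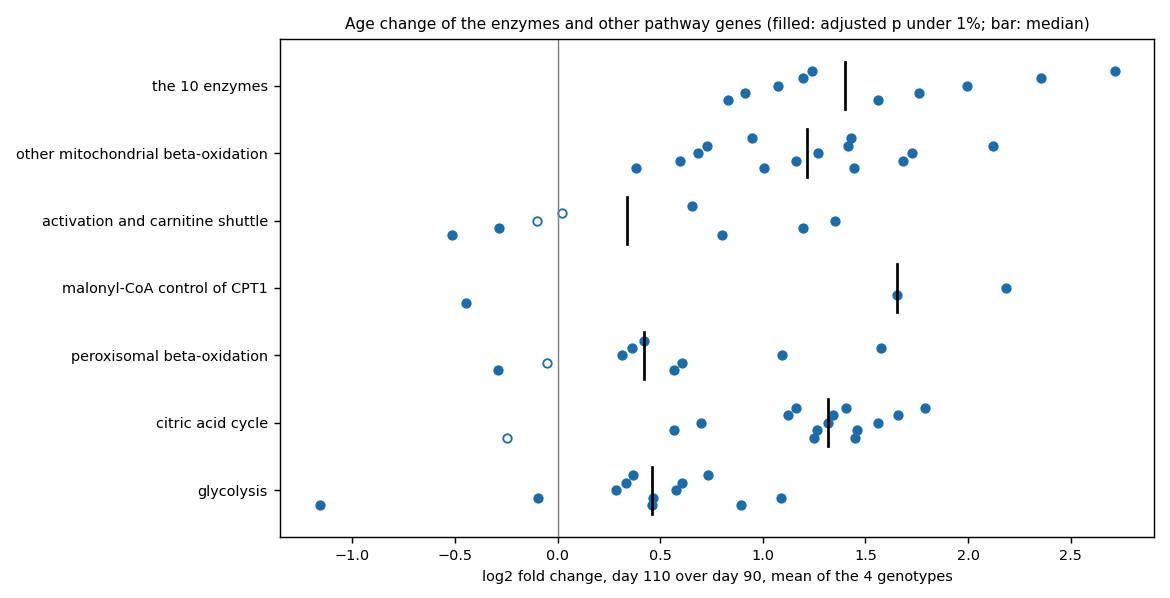
Log2 fold change from day 90 to day 110, mean of the 4 genotypes (horizontal axis), for the 10 enzymes and for other pathway genes by list (vertical axis); each dot is a gene's main probe, filled where it passed the test, and bars are list medians. The medians of the 10 enzymes (1.40), of the other mitochondrial beta-oxidation genes (1.21) and of the citric acid cycle (1.32) lie above that of glycolysis (0.46).

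Between the breeds at day 110, 13.7% of all probes passed as higher in MS and 15.2% as lower. Here 7 of the 14 other mitochondrial genes were higher in MS and 0 lower, with a median of 0.37 beside 0.0079 over all probes. The differences in this list ran from -0.13 to 2.24. ECH1 and ACAT1, named for their age change, were higher by 1.22 and 0.84. In the citric acid cycle 10 of 15 were higher and 0 lower, and in glycolysis 8 of 12 were higher and 1 lower. ACACB was higher in MS by 1.098 and CRAT by 0.83. At day 90, 6 of the 14 other mitochondrial genes were already higher in MS and 0 lower, with a median of 0.17 and differences from -0.070 to 1.91. In the citric acid cycle 2 of 15 were then higher, and in glycolysis 1 of 12 was higher and 1 lower, against 12.8% of all probes in either direction. A different age change between the breeds passed for 0 of the 14, 1 of the 15 and 2 of the 12, against 5.95% of all probes. In the same fetuses, the 6 fibroblast genes COL1A1, COL1A2, COL3A1, DCN, LUM and PDGFRA all fell with age in both breeds, and 5 of the 6 were lower in MS at day 110. Their mean level was between 14.21 and 14.53 in LW and between 14.32 and 14.57 in MS at day 90, and between 13.02 and 13.51 in LW and between 12.29 and 12.61 in MS at day 110. All 6 were well above background on all arrays. Of 5 slow fibre genes 3 rose with age in LW and in MS, and 0 differed between the breeds at day 110. Over the mean of the genotypes, 3 of 5 muscle fibre genes rose and 1 fell, 2 of 6 adipocyte genes rose and 3 fell, 1 of 5 endothelial genes rose and 3 fell, 0 of 4 macrophage genes rose and 2 fell, 1 of 4 satellite cell and myoblast genes rose and 2 fell, 2 of 4 Schwann cell genes rose, and 1 of 2 blood genes rose. At day 110, 1 adipocyte and 1 endothelial gene were lower in MS, 1 macrophage and 1 Schwann cell gene were higher, 1 satellite cell and myoblast gene was higher and 1 lower, and 0 muscle fibre or blood genes passed. The part of cell composition in the enzyme results was not tested.

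After the means of the 8 groups and the slides had been taken out, most of the 10 enzymes still varied together from fetus to fetus. Over the 45 pairs of main probes Pearson's r had a median of 0.44 and ran from -0.14 to 0.81 over 61 fetuses, some of which shared a litter and all of which shared slides with others. The pair of ACADVL and HADHA had the highest value, with 0.81, and CPT2 and ACADVL reached 0.78. ETFDH had a median r of 0.12 with the other 9, and of 0.26 without MSLW day 90 replicate 2, the fetus with the low ETFDH reading. Over all pairs the lowest value was then 0.071 and the median 0.45. Without taking out the slides, the median was 0.38 at day 90 (32 fetuses) and 0.52 at day 110 (29 fetuses), and that of ETFDH was -0.040 and 0.49. Among 8773 other genes, r with the mean of the 10 enzymes had a median of 0.0044 and a 95th percentile of 0.37. The 5 most alike were LCTHIO (0.80), ACADS (0.73), PNPLA2 (0.73), SLC25A20 (0.71) and WDR45 (0.71). LCTHIO is HADHB under its older symbol, ACADS is the short-chain dehydrogenase, PNPLA2 is adipose triglyceride lipase, which frees fatty acids from stored fat, SLC25A20 carries acylcarnitine across the inner mitochondrial membrane, and WDR45 is a protein of autophagy. On average over the 10 enzymes, with the slides left in, LW day 110 held both extremes. Replicate 1 lay 0.43 above its group mean and replicate 3 lay 0.43 below it. With the slides taken out these 2 fetuses were at 0.33 and -0.30. LW day 110 replicate 9 and LWMS day 110 replicate 4 were then also at 0.33.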

How the data were processed

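The authors hybridized Cy3-labelled RNA and read the arrays with Agilent Feature Extraction 10.10.1.1, per the labels. They deposited the intensity of every spot of each array, not normalized between arrays, and a table of log2 values that were quantile normalized by the authors. Here control spots were removed, non-uniform spots set to missing, and the background-corrected intensity quantile normalized and log2 transformed; spots of 1 probe were averaged. A probe was kept if well above background on 80% of the arrays of at least 1 group. The 8 groups were fitted with limma, and contrasts were tested two-sided with Benjamini-Hochberg adjustment over the 42436 kept probes (threshold 1%). ± is the standard error of the fit. Fetuses of 1 litter share the sow and the age, and LW and MS fetuses came from sows of their own breed. The number of sows, smaller than that of fetuses, therefore limits the precision of the age and breed comparisons. The fit treats fetuses as independent, so its p-values can be too small. Parental effects came from a model of age, mother and father with their pairwise interactions. The study's random sow effect was left out, because the labels do not give the sow.

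The named genes are the 10 enzymes by all their probes, for each list the 2 genes of largest and the 2 of smallest age change, and the 5 genes most alike in residuals. Of the pathway lists, 1 list of 4 genes is not reported here. The enzymes and lists were chosen with earlier results of these data known. Tried as alternatives were other signals (the spot's median, the deposited log2 table), normexp background correction (offset 50), 75th percentile scaling, other filters, non-uniform spots, slide as a block, moderation, the samples fitted and the choice of probe; 3 of the 20 were chosen after seeing the data. Rows of the deposited table were matched to spots by their place in the scanner file, after which the table differed from the quantile normalized median signal by a median of 0.0188 log2 units. The fit was tested on simulated data. Tools were R 4.3.3, limma 3.58.1, data.table at version 1.17.8, Python 3.11.15 and matplotlib 3.10.9. RefSeq names (Sscrofa11.1) served for older symbols and neighbours only.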

Additional observations from a re-analysis of the deposited data

Results flagged for a closer look

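The main probes of the 10 genes gave 80 sets of readings over the 8 groups. Of these sets, 6 held a value far from the rest (a gap to the nearest fetus large against the range of the group). Chance alone flags about 1 in 20, but the 10 sets of a group hold the same fetuses and are not independent. ETFDH read 8.67 in MSLW day 90 replicate 2, where the next fetus read 10.48, and 11.85 in LW day 110 replicate 1. MSLW day 110 replicate 3 was low for ACADVL (13.50) and for HADHA (12.79). LWMS day 90 replicate 3 was high for ACADM (12.69), and LWMS day 90 replicate 6 for ACADVL (12.26). DCI was the only one of the 10 main probes whose age change differed between MS and LW by the test of the difference itself, at 0.88 on the log2 scale. The study had already named DCI from these same fetuses.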

How the results depend on the processing

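All 10 enzymes passed as higher at day 110 in each genotype under every alternative that could be fitted (19 for LW and for MS). At day 110, between 6 and 9 of the 10 passed between MS and LW, 6 in the main analysis. At day 90, the 2 calls between MS and LW became 1 with the median signal, the deposited values, normexp, non-uniform spots kept, the mean of all probes of a gene and without MS day 90 replicate 3, and 0 with 75th percentile scaling and with LW and MS fetuses only; the cause was not tested. The 1 call for the difference in age change became 2, with CPT1B, under 75th percentile scaling and with the mean of the probes (with or without O13893 and O5529), where the ACADM difference turned from -0.017 to 0.20 and to 0.094, and the HADHB difference from -0.18 to 0.11 under 75th percentile scaling; none of these 3 values passed. The share of probes with a larger rise or a smaller fall given a MS parent moved from 38.1% to 51.3% for the mother and from 29.6% to 46.3% for the father under that scaling. Leaving out the MSLW fetuses of day 110 in turn changed no call of an enzyme. Counts over all probes moved by over 1.5 times only where no enzyme passed: for the crosses at day 110 from 387 to 253 with the crosses only and to 238 without MSLW day 110 replicate 3; against the mid-parent from 21 to 11, 11, 6 and 4 at day 90 and from 33 to 21, 20, 19 and 9 at day 110 (median signal, deposited values, normexp, filter on all arrays); for the mother from 1293 to 2143 with slide blocks; and for the father from 196 to 308 without MSLW day 110 replicate 3. No paired analysis was possible because the replicate numbers follow accession order and are no pairing from the labels; the slide, which they match for all day 90 fetuses, was run as a block and changed no count of enzymes that passed. The HADHB probe O5529 was well above background on 24 of 61 arrays, so that its values are the least certain.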
